A study of Bos taurus with 2 samples.

Results

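The first 2 Mb of the 29 cattle autosomes, the ends at which coordinates begin, were examined for CpG methylation in bone. The members were 1 kb windows that lay in these 2 Mb of each chromosome and held at least 20 methylation calls in each sample. There were 46384 such windows among 2189146 on chromosomes 1 to 29 and X, and 2043854 windows on the remainder of the same 29 chromosomes served for comparison. Methylation was measured by whole-genome bisulfite sequencing (WGBS) in 2 bone samples, Bone_1 and Bone_2, from female Holstein cattle with no treatment stated. The labels do not say whether they came from 1 or 2 animals, which part of a bone was taken or at what age, so every SD given with n = 2 is the spread between these samples, which may be technical. The tissue label was not checked against bone marker genes, since no gene annotation of the build of the files was used here.

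In bisulfite sequencing, unmethylated cytosines are read as thymine while methylated cytosines are still read as cytosine. The share of calls read as cytosine at a CpG site is its methylation level. Most CpG sites of mammalian somatic cells are methylated, and CpG islands, short stretches dense in CpG sites that often cover promoters, usually are not. Cattle autosomes are acrocentric, with the centromere close to one end. Regions beside mammalian centromeres commonly hold satellite DNA, in which a short unit repeats many times in a row, along with segmental duplications and clusters of multigene families, and reads from near-identical copies are hard to place in such regions. The centromere itself was not located here, and "start" means the low-coordinate end of each assembled chromosome.

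The starts were less methylated than the rest of the same chromosomes in both samples. The mean window level was 72.1% in Bone_1 and 55.2% in Bone_2, against 76.1% and 59.6% in the rest. Windows near the starts held more CpG sites on average, 14.1 against 11.7, with a median of 9 in both regions, so each window was set against windows of the same chromosome with the same number of CpG sites (exact up to 30 sites, in classes above that). At equal CpG number the starts differed from the rest by -3.23 percentage points in Bone_1 and -3.83 points in Bone_2, an average of -3.53 ± 0.424 points (SD, n = 2). Pooled over calls, the level was 69.8% of 15033680 calls in Bone_1, with a 95% Wilson interval of 69.7 to 69.8%, and 54.8% of 9345213 calls in Bone_2, with an interval of 54.8 to 54.8%. These intervals cover counting error only. The spread between windows was far wider, with an SD over windows of 17.4 points in Bone_1 and 15.9 points in Bone_2. No test was made of the starts against the rest, because windows and chromosomes of 1 sample are not replicates of a condition.

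The difference lay in the middle of the range and little of it in unmethylated windows. Windows with a level from 20 to 60% made up 17.0% of the starts in Bone_1 and 56.4% in Bone_2, against 9.19% and 44.7% of the rest. Windows above 80% made up 37.2% of the starts in Bone_1, against 48.1% of the rest. In Bone_2 the share above 80% was 4.08% against 4.35%. Windows below 20% were 1.91% of the starts in Bone_1 and 2.56% in Bone_2, beside 1.88% and 1.90% in the rest.

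The lower level lay mainly in the first 600 kb. In the first 100 kb, windows differed from their chromosome by -8.47 points in Bone_1 and -9.33 points in Bone_2, and 26 of the 29 chromosomes were lower in both samples. From 200 to 300 kb the differences were largest, at -9.18 and -10.6 points. From 500 to 600 kb they were -5.52 and -6.23 points. The limit of 600 kb was not planned and follows these same steps, so the division is a description. Over 0 to 600 kb the 13217 windows differed on average by -8.12 ± 0.645 points (SD, n = 2), with 23 chromosomes lower and 5 higher in both samples. Over 600 kb to 2 Mb the 33167 windows differed by -1.70 ± 0.336 points (SD, n = 2), and 13 chromosomes were lower while 16 were higher in both. The step just inside the limit, 1900 to 2000 kb, was at -0.750 and -1.30 points, and the 1 Mb just outside it was at -2.62 and -2.34 points, so the level did not change abruptly at 2 Mb. Between 9 and 10 Mb the differences were -0.602 and -0.365 points.

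**Figure D1:**
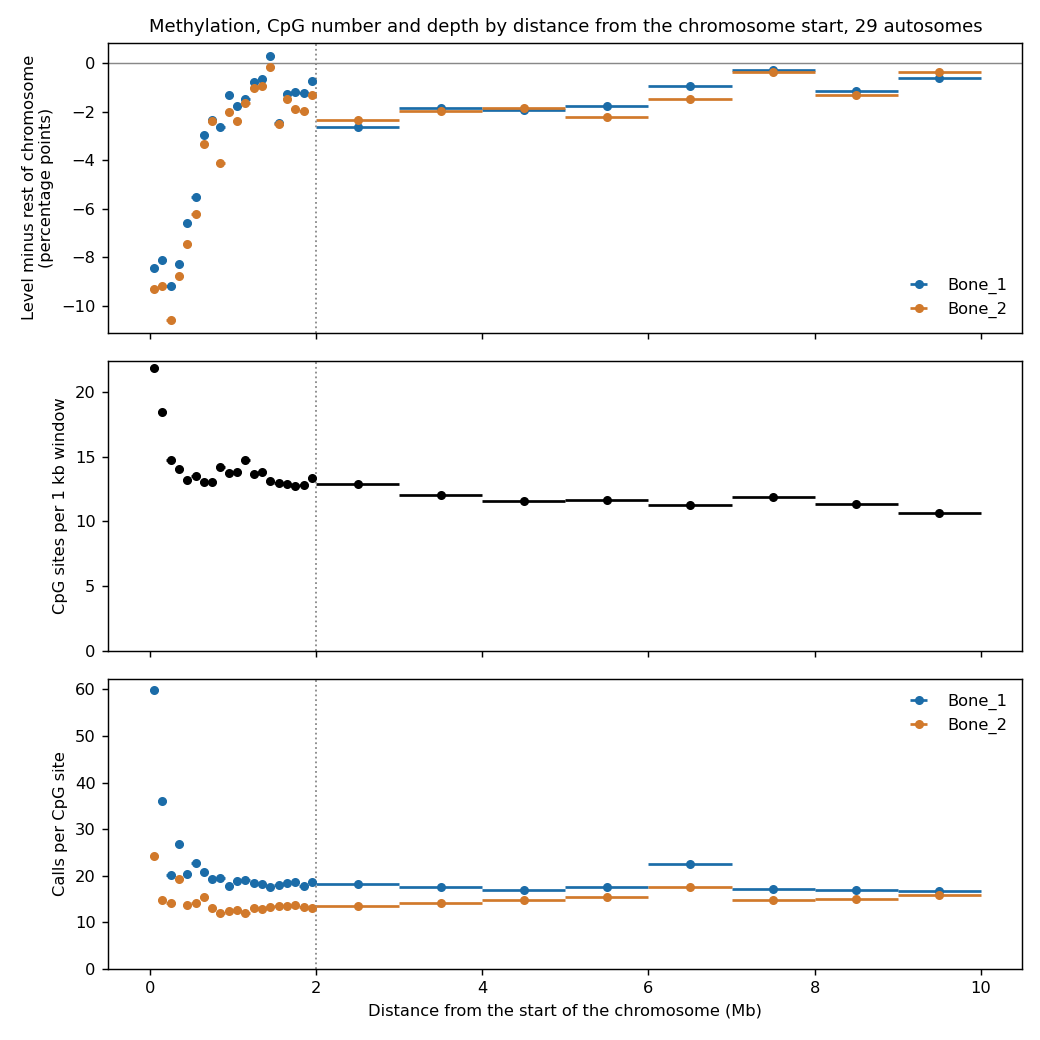
The horizontal axis is the distance from the chromosome start in Mb, in 100 kb steps up to 2 Mb (dotted line) and 1 Mb steps up to 10 Mb, with horizontal bars marking the width of each step; the panels show the level minus the rest of the chromosome at equal CpG number in percentage points, the CpG sites per 1 kb window and the calls per CpG site. The difference is between -5.52 and -10.6 points in the first 6 steps of both samples and closer to 0 in every later step, and CpG number and depth are highest in the first 100 kb.

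Depth and CpG number moved along the same distance. The first 100 kb held 21.8 CpG sites per window and was covered by 59.9 calls per CpG site in Bone_1 and 24.2 in Bone_2, with 64.5% of its windows kept. From 200 to 300 kb these values were 14.7 sites, 20.1 calls and 14.1 calls, with 80.8% of windows kept, and the level difference there was as large as in the first 100 kb. Windows above 50 calls per site in either sample numbered 1427 and differed from their chromosome by -6.42 points in Bone_1 and -5.96 points in Bone_2. The other 44957 windows were at -3.13 and -3.76 points, so the difference was nearly as large without the deep windows. Restricting the comparison to windows with 5 to 30 calls per site in each sample gave -3.05 and -3.62 points.

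The starts of single chromosomes differed widely from each other, and nearly the same way in both samples. Compared with their own chromosome at equal CpG number, 21 starts were lower in both samples, 7 were higher in both and 1, chromosome 10, was at 0.0570 points in Bone_1 and -0.630 points in Bone_2. The SD over the 29 chromosomes was 5.45 points in Bone_1 and 5.60 points in Bone_2, whereas the largest difference between the samples for any chromosome was 2.08 points. Across the 29 chromosomes the values of the samples correlated with Pearson's r = 0.994 and Spearman's rho = 0.992. This is a description over chromosomes measured in the same libraries and mapped to the same assembly, and the points are not independent samples.

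**Figure D2:**
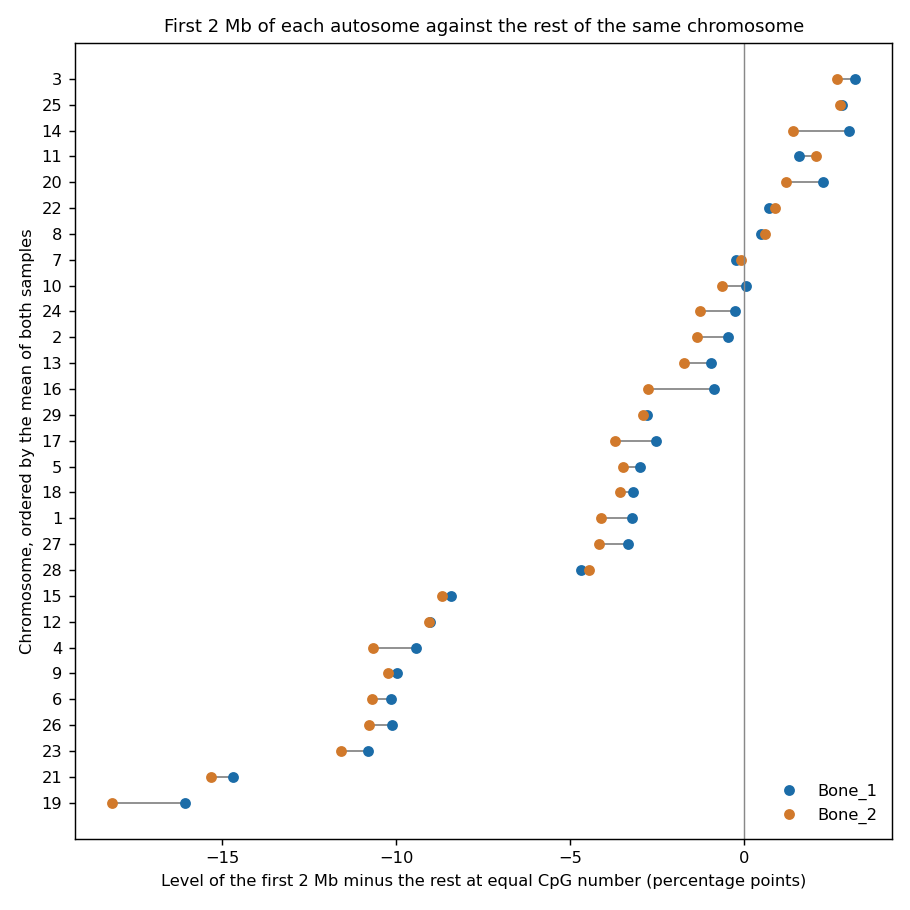
Each row is 1 autosome, ordered by the mean of both samples, and the horizontal axis is the level of its first 2 Mb minus the rest of that chromosome at equal CpG number in percentage points, with a point for each sample. The points of Bone_1 and Bone_2 lie at most 2.08 points apart, and 9 chromosomes stand below -8 points in both samples.

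Chromosome 19 had the lowest start. Its 1314 windows had a mean level of 60.1% in Bone_1 and 41.6% in Bone_2, where windows with the same CpG number on the rest of the chromosome had 76.2% and 59.7%. The difference was -17.1 ± 1.47 points (SD, n = 2). The median window there was at 62.1% in Bone_1 and 42.0% in Bone_2, beside 81.3% and 62.1% for all other windows of the chromosome, so the shift was in the bulk of the windows and not in a few of them. From 100 to 500 kb, each 100 kb step was between -24.4 and -28.9 points in both samples, and none of the 20 steps reached the level of the rest.

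Chromosome 21 followed, with 60.9% in Bone_1 and 43.6% in Bone_2 and a difference of -15.0 ± 0.444 points (SD, n = 2). It had a different course from chromosome 19: its first 100 kb was at -4.24 and -5.38 points, the step from 800 to 900 kb at -23.9 and -21.5 points, and the last step, 1900 to 2000 kb, at -2.30 and -2.31 points. Chromosome 23 was at 64.5% and 46.6%, a difference of -11.2 ± 0.546 points (SD, n = 2). Its start also had the highest depth of any, 74.1 calls per site in Bone_1 and 46.3 in Bone_2, against 18.0 and 13.7 in the rest of the chromosome. Much of this came from 9 windows that started between positions 11001 and 24001. They held 364471 calls in Bone_1 and 191044 in Bone_2 over 231 CpG sites. Without windows above 50 calls per site the difference of chromosome 23 was -11.0 points. Over the first 5 Mb the difference was -8.10 points for chromosome 21 and -2.77 points for chromosome 23.

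At the other end of the order, chromosome 3 had 79.7% in Bone_1 and 62.8% in Bone_2 and stood 2.92 ± 0.370 points above its rest (SD, n = 2). Its step at 600 to 700 kb was 14.3 and 20.7 points higher. Chromosome 25 was 2.77 ± 0.0523 points higher and chromosome 14 was 2.19 ± 1.15 points higher (SD, n = 2 each). These starts were the densest in CpG sites, with 34.3 sites per window on chromosome 25 and 30.6 on chromosome 14, against 16.8 and 10.8 in their rests. Among windows with under 30 CpG sites alone, the start of chromosome 14 was at -2.43 points as the mean of both samples, an alternative chosen after seeing the data. With medians of window levels it was at 0.558 points in Bone_1 and -0.252 points in Bone_2, so its place above 0 depended on how windows were averaged.

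Ordered by value, the chromosomes left a gap between -8.55 and -4.58 points. A gap nearly as wide lay lower, between -15.0 points (chromosome 21) and -11.2 points (chromosome 23). The starts of chromosomes 4, 6, 9, 12, 15, 19, 21, 23 and 26 lay at -8.55 points or lower, and the other 20 lay between -4.58 and 2.92 points. This division was made after the values were seen and is a description. The 12086 windows of the first set averaged -11.0 points in Bone_1 and -11.7 points in Bone_2, and the 34298 windows of the second averaged -0.492 and -1.05 points. Every chromosome was also divided into 2 Mb blocks, which were ranked by mean window level without matching CpG number. The first block was the lowest of its chromosome in both samples on 6 chromosomes (4, 6, 12, 19, 21 and 26). On all 9 it was among the lowest 3 in both samples, as it was on chromosome 28 of the other 20. The 9 were chosen for low levels in these same windows, so their ranks are no separate result. In the first set, 8 of the 9 starts had fewer CpG sites per window than the rest of their chromosome, as did 7 of the other 20. On chromosome 21 the values were close, 12.1 against 12.8, and chromosome 4 had more, 12.6 against 10.5.

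**Figure D3:**
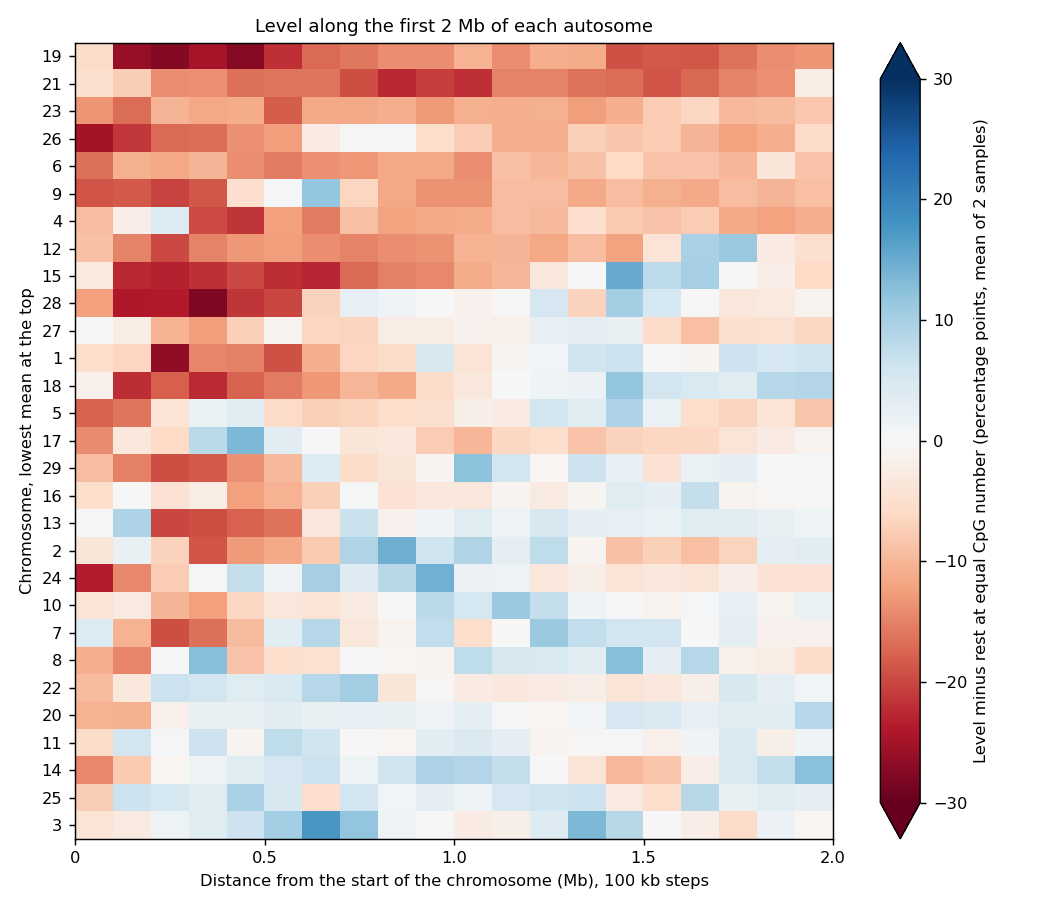
Rows are the 29 autosomes from the lowest mean at the top, columns are 100 kb steps from the chromosome start to 2 Mb, and the colour gives the level minus the rest of the chromosome at equal CpG number in percentage points as the mean of 2 samples (red lower, blue higher). Chromosomes 6, 19, 21 and 23 are lower in all 20 steps in both samples, whereas chromosomes 15, 28, 18 and 1 are lower mainly in the first steps.

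Chromosomes outside the set of 9 also had low stretches. On chromosome 28 the step from 300 to 400 kb was at -31.4 points in Bone_1 and -24.6 points in Bone_2, the lowest mean of the 580 steps, while the steps from 700 to 900 kb were between 0.343 and 3.01 points higher. On chromosome 1 the step from 200 to 300 kb was at -26.9 and -26.4 points.

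The sign of the mean difference depended on how many CpG sites a window held. Windows with 1 to 4 sites differed from the rest of their chromosome by -7.43 points in Bone_1 and -8.10 points in Bone_2. Windows with 5 to 9 sites were at -4.92 and -5.45 points, those with 10 to 14 sites at -2.95 and -3.15 points, and those with 15 to 19 sites at -1.55 and -1.58 points. Windows with 20 to 29 sites were at -1.76 and -2.21 points. In the class of 30 to 39 sites the mean difference was -0.139 points in Bone_1 and -1.66 points in Bone_2, while the median window was at 76.0% and 58.1%, against 82.7% and 63.5% in the rest of the autosomes. Above that the order of the means turned: the 1781 windows with 40 to 59 sites were on average 8.71 points higher than the rest in Bone_1 and 5.65 points higher in Bone_2, and the 715 windows with 60 or more were 9.28 and 7.16 points higher. The median window with 40 to 59 sites was not higher at the starts, at 78.9% and 61.2% against 81.2% and 61.6%. In the class of 60 or more the medians were 9.97% and 9.71%, against 3.92% and 4.64%. In the class of 40 to 59 sites, 18 chromosomes were higher and 8 lower in both samples.

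**Figure D4:**
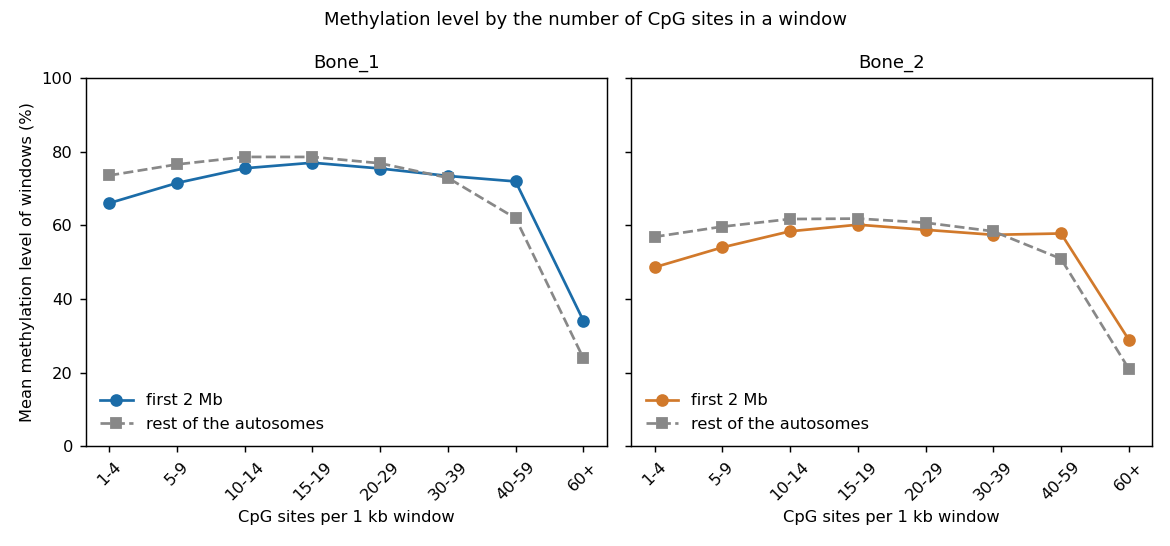
The horizontal axis is the number of CpG sites in a 1 kb window in 8 classes and the vertical axis the mean methylation level of windows in percent, for the first 2 Mb (circles) and the rest of the autosomes (squares), with 1 panel for each sample. The means of the starts lie below the rest in classes under 30 sites and above it from 40 sites on, in both samples.

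Fewer CpG-dense windows were at low levels near the starts. Of windows with 40 to 59 sites, 8.42% were below a level of 20% in Bone_1 and 8.65% in Bone_2, against 22.99% and 22.8% in the rest. Of those with 60 or more sites, 58.6% and 58.9% were below 20%, against 71.5% and 71.1%. In the densest class, 15 chromosomes were lower and 14 higher than their own rest in both samples, but only 20 of the 29 held at least 5 such windows. Windows with 40 or more sites were at the same time more common at the starts, at 5.38% against 2.66%, and over all windows the share below 20% in both samples was 1.58% (731 windows), beside 1.56% in the rest.

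Of these 731 windows with little methylation, 535 (73.2%) held 40 or more CpG sites, the density typical of CpG islands. Chromosomes 14 and 25 carried 285 of them (38.99%). They formed 40 runs of 3 or more adjacent windows. The longest, chr11:1232001-1239000 (coordinates as in the files, whose build the submitters' processing notes give as ARS-UCD1.2), spanned 7 windows and 547 CpG sites and had a level of 1.23% of 12065 calls in Bone_1 and 1.26% of 3901 calls in Bone_2. The next, chr25:1242001-1248000, spanned 6 windows and 409 sites, at 1.22% of 10321 calls and 3.28% of 3204 calls. The run chr24:1078001-1083000 held 528 sites at 3.81% and 4.06%. These runs were chosen for low levels in both samples.

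CpG-poor windows showed the reverse. Among the 23224 windows with 1 to 9 sites, 411 (1.77%) were below 20% in Bone_2, against 0.419% of such windows in the rest. In Bone_1 the share was 0.521% against 0.357%. The 411 windows, chosen for low levels in Bone_2, had a median level of 35% in Bone_1, beside 29.8% for the windows chosen the same way in the rest. Of the 411, 253 lay in the first 600 kb, and 65 were on chromosome 19.

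Within the first 200 kb, part of the CpG sites were regularly spaced. The 104764 sites counted there include sites in windows that were not kept. Pairs of CpG sites exactly 23 bp apart numbered 136 per 1000 sites there, against 26.2 in the rest of the autosomes, and pairs 46 and 68 bp apart were also frequent, at 116 and 82.2 per 1000 sites against 24.0 and 22.7. At distances between these, such as 34 and 57 bp, there were 26.8 and 29.95 pairs. A scan of periods gave 22.7 bp, at which pairs were 1.51 times as frequent as around it, while the same ratio was 1.00 from 200 kb to 2 Mb and 1.00 in the rest. The sequence behind this period was not read, as no genome of this build was used here.

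**Figure D5:**
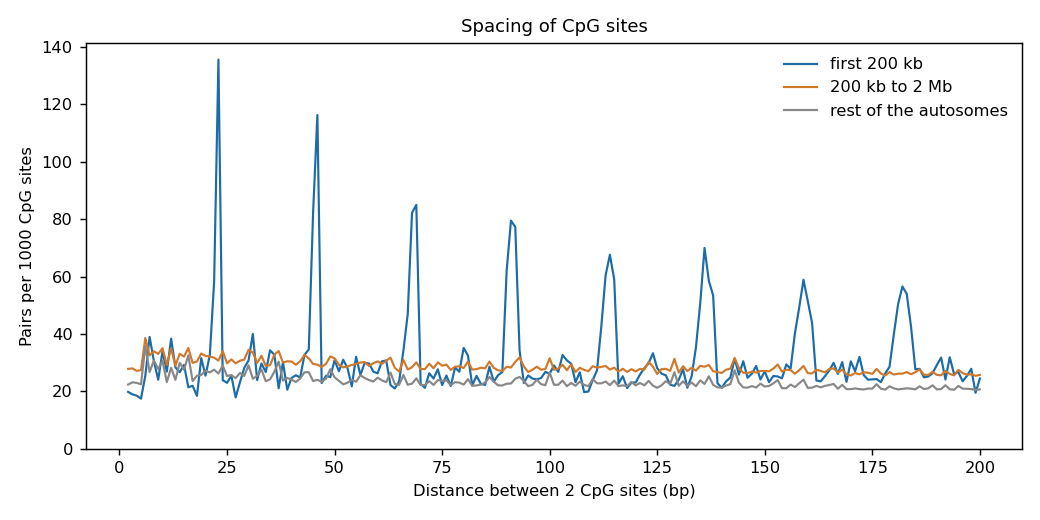
The horizontal axis is the distance between 2 CpG sites in bp and the vertical axis the number of such pairs per 1000 CpG sites, for the first 200 kb, for 200 kb to 2 Mb and for the rest of the autosomes. The line of the first 200 kb has peaks near multiples of 22.7 bp, the first at 23 bp (136 pairs), whereas the other lines have no such peaks.

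Windows carrying this spacing were picked as those in which at least 30% of at least 30 CpG pairs, 20 to 250 bp apart, lay within 1 bp of a multiple of the period, a rule set after the spacing was seen. There were 481 of them at the starts (2.76% of windows with enough pairs) and 326 (0.0520%) in the rest. Of the 481, 469 (97.5%) were in the first 200 kb, where they made up 21.5% of windows with enough pairs. They lay on 20 chromosomes, with 118 on chromosome 1, 70 on chromosome 4 and 60 on chromosome 13, and 9 chromosomes had none.

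The 481 regularly spaced windows had a mean level of 64.9% in Bone_1 and 53.4% in Bone_2. At equal CpG number they differed from the rest of their chromosome by -7.96 points in Bone_1 and -4.96 points in Bone_2. Of the 10 chromosomes with 10 or more such windows, 9 were lower in both samples and 1, chromosome 18, was 0.223 and 0.621 points higher. Within the first 200 kb, the 469 regularly spaced windows were at 65.1% in Bone_1, with an SD over windows of 7.72 points, and at 53.5% in Bone_2, with an SD of 9.98 points. The other 1711 windows with enough pairs in the same 200 kb were at 69.6% (SD over windows 13.3 points) and 53.0% (12.7 points), so the levels of these sets were close in Bone_2. At equal CpG number the spaced windows there were at -7.69 and -4.76 points and these 1711 windows at -0.518 and -3.12 points. Windows with too few pairs are in neither set. Depth differed greatly between the samples in the 481 windows, at 58.3 calls per site in Bone_1 and 9.80 in Bone_2. They held 30.8 CpG sites on average, and windows with 30 to 39 sites in the rest had 21.1 and 9.24 calls per site. In the first 200 kb, the 469 spaced windows had 58.6 and 9.75 calls per site, with medians of 40.5 and 6.79. The other 1711 windows there had 52.0 and 20.8, with medians of 19.5 and 11.7. Depth was thus lower in Bone_2 in each of these sets, and the imbalance was widest in the spaced windows. The part of depth in these levels was not tested. All 4023 windows of the first 200 kb, including those with too few pairs, were at -8.27 and -9.27 points. They held 21.8 CpG sites per window in the first 100 kb and 18.4 from 100 to 200 kb. The spaced windows held 31.2, so these sets differ in density and are not compared. The 3554 left without the regularly spaced ones, an alternative chosen after seeing the data, were at -8.35 and -9.86 points.

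Very deep windows were concentrated at the starts. Over 100 calls per site were found in 0.808% of windows in Bone_1 and 0.321% in Bone_2, against 0.0493% and 0.0102% of the rest. Above 500 calls per site in both samples there were 16 windows on 3 chromosomes. Of these, 9 were on chromosome 23, where levels ran from 56.0 to 74.2% in Bone_1 and from 38.4 to 59.4% in Bone_2. The 5 on chromosome 13 ran from 43.6 to 69.3% and from 36.8 to 50.7%, and the 2 on chromosome 20 from 48.97 to 52.4% and from 34.3 to 37.7%. The part of this depth in the levels was not tested. Averaged over all kept windows, depth at the starts relative to the rest was 1.30 in Bone_1 and 0.973 in Bone_2, and it was 1.07 and 0.930 as a ratio of medians.

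The base after the CpG dinucleotide had nearly the same composition at the starts as in the rest, with CGA at 23.3% against 24.1%, CGC at 22.4% against 22.2%, CGG at 26.8% against 27.1% and CGT at 27.5% against 26.6% of cytosines. The difference in level was nevertheless unequal. Pooled over calls, CGT was at 67.6% in Bone_1 and 51.4% in Bone_2, against 73.1% and 56.9% in the rest. CGA was at 70.8% and 52.9%, against 74.7% and 59.4%. For CGG the levels were 70.7% and 56.5% against 71.0% and 59.5%, and for CGC they were 70.2% and 57.7% against 71.0% and 61.4%. The starts were lower in all 4 contexts in both samples, by less where the following base was C or G. The composition covers all 710283 CpG sites of the starts, including those in windows that were not kept. The levels by context were not set at equal CpG number.

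Bone_1 was more methylated than Bone_2 across the starts, by 16.9 points on average, beside 16.3 points in the rest at equal CpG number. In a two-sided Fisher's exact test of the calls in each window, with Benjamini-Hochberg adjustment over all 2189146 windows, 30826 windows of the starts (66.5%) were higher in Bone_1 at an adjusted p under 0.05, where 64.8% of all windows were. In 432 windows (0.931%) Bone_2 was higher, where 0.977% of all windows were. Tested against the odds ratio of the autosomal totals, 1.81, in place of 1, the gap was wider in 8451 windows (18.2%, all windows 17.4%) and narrower or turned in 1758 (3.79%, all windows 3.71%). The shares at the starts were close to those of all windows, and nothing is read from them about the starts. Each p-value compares one library with the other and says nothing of a condition, and it is too small because 1 read can give several calls.

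Among windows with at least 5 CpG sites and 50 calls in each sample, the widest difference was at chr28:886001-887000, with 94.8% of 58 calls in Bone_1 and 28.0% of 93 calls in Bone_2 (Fisher's exact test, adjusted p = 1.4e-15). The next was chr19:1741001-1742000, with 75.2% of 161 calls and 11.6% of 69 calls (Fisher's exact test, adjusted p = 6.9e-18). The other 3 of the 5 widest lay on chromosomes 7 and 12, with differences from 55.4 to 57.6 points. In the opposite direction the widest difference was at chr28:842001-843000, with 19.1% of 141 calls in Bone_1 and 60.1% of 148 calls in Bone_2 (Fisher's exact test, adjusted p = 1.7e-11), followed by chr29:1259001-1260000, with 19.2% of 130 calls and 57.6% of 118 calls. The CpG-dense window chr25:1544001-1545000, with 63 sites, was at 7.67% of 1447 calls in Bone_1 and 40.4% of 280 calls in Bone_2. Of the single CpG sites that had 10 calls or more in both samples, those at or below 10% in one and at or above 90% in the other numbered 131 among 269056, or 48.7 per 100000, against 47.4 in the rest.

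The chromosome starts of the RefSeq annotation of the ARS-UCD2.0 assembly, a different build, give the gene families that lie there, and no methylation level was assigned to them. Of the 290 genes listed first on the 29 autosomes (10 on each), 138 (47.6%) were olfactory receptor genes, which encode the odorant receptors of the nose and form large clusters, and 125 of these were pseudogenes. Olfactory receptor genes were among the first 10 on 23 chromosomes, and made up 5.34% of the 34467 autosomal genes. On chromosome 19 all 10 were olfactory receptor genes, 8 of them pseudogenes, and the first named protein-coding genes after them were CA10, KIF2B, which encodes a kinesin motor, and TOM1L1. Chromosome 3 also began with 10 olfactory receptor genes, all pseudogenes, ahead of TBX19, a pituitary transcription factor. Chromosomes 4, 5, 12, 21, 27 and 29 had no olfactory receptor gene among their first 10. The first 10 of chromosome 21 included BTIGGHB and IGHM. Its first named genes classed as protein-coding came after these 10. They were MKRN3, MAGEL2 and NDN, which in other mammals are imprinted and expressed from the paternal copy. On chromosome 25 they were IL9R, an interleukin receptor, POLR3K, a subunit of RNA polymerase III, and SNRNP25.

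The opposite chromosome ends had a different pattern. Measured against the interior of each chromosome, at equal CpG number, the first 2 Mb were at -2.92 points in Bone_1 and -3.60 points in Bone_2, with 18 chromosomes lower and 7 higher in both samples. The last 2 Mb were 7.30 and 5.55 points higher, with 3 chromosomes lower and 25 higher in both. Windows of the last 2 Mb held 28.1 CpG sites, against 14.1 at the starts. Depth there was 21.3 calls per site in Bone_1 and 9.50 in Bone_2, against 23.03 and 14.3 at the starts, and its part in this difference was not tested.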

How the data were processed

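Genomic DNA of 2 bone samples was sequenced by WGBS with 150 bp paired-end reads. The deposited values are counts of methylated and unmethylated calls that the authors made for each CpG cytosine with Bismark after removing duplicates. The submitters' processing notes name ARS-UCD1.2, FastQC 0.11.5, Trim Galore 0.4.5, Bowtie2 and Bismark 0.19.0, whereas the methods of the study name an older assembly, so the build of the files follows the notes. Bismark keeps reads with 1 best placement, so levels in repeats rest on the copies that reads can tell apart. The files held 582241763 calls (Bone_1) and 440334436 calls (Bone_2) over all sequences. Chromosomes 1 to 29 with X took 462047525 and 406703424 of these.

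Both strands of each CpG were summed in 1 kb windows, and windows with at least 20 calls in each sample were kept: 46384 of 57295 windows with a CpG site at the starts (81.0%), against 84.8% in the rest. Windows under 20 calls were 18.5% in Bone_1 and 3.74% in Bone_2 at the starts, against 15.0% and 1.50% in the rest. The level is methylated calls over all calls. The window level minus the mean level of windows with the same CpG number on the rest of the chromosome was averaged over windows, with up to 30 sites matched exactly. Windows were compared between samples with Fisher's exact test (scipy 1.17.1, numba 0.67.0). The code was tested on simulated data. Named chromosomes were the 3 highest, the 3 lowest and any with opposite signs, and named windows the 5 widest differences each way among those with an adjusted p under 0.05, at least 5 CpG sites and 50 calls. Others were named after their values were seen. The region, lists and rules were chosen with earlier results of these data known. Promoters and marker genes were not analysed here, as no annotation of this build was used.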

Additional observations from a re-analysis of the deposited data

How the results depend on the processing

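The lower level of the starts at equal CpG number kept its direction under each alternative tried. Its mean over the samples of -3.53 points became -2.68 with 50 calls per window, -5.84 over the first 1 Mb, -2.69 over the first 5 Mb, -4.25 with medians of window levels, -2.91 with at least 5 CpG sites, and -4.36 with windows under 30 CpG sites, an alternative chosen after seeing the data, as were those without regularly spaced or deep windows and against the chromosome interior. It ranged from -3.83 to -3.23 when 1 sample was left out. The gap between the samples, 0.600 points wider at the starts, was 0.787 over the first 1 Mb, 0.212 over 5 Mb, 1.28 in 5 kb windows and 0.148 with medians. The count of differing windows, 31258, was 10209 against the odds ratio of the totals and 16935 with a difference of at least 20 points. The share of windows with little methylation, averaging 2.24%, was 1.24% below a level of 10%, and from 1.91 to 2.56% in single samples. The depth ratio, averaging 1.13, was 0.994 without the deepest cytosines, 0.999 as medians and from 0.973 to 1.30 in single samples. Regularly spaced windows at the starts, 481 in the main rule, numbered 355 with at least 40% of pairs and 535 with 25%. In the rest, with 326 in the main rule, they numbered 43 and 1672, so the contrast with the rest depended on the cut.

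Of 97 values for named chromosomes under alternatives, 6 turned. Others moved by over 1.5 times without turning, chromosomes 21 and 23 over 5 Mb among them: chromosome 14, at 2.19 points, was 0.153 with medians, 1.17 with 5 to 30 calls per site and 5.50 in 5 kb windows, chromosome 25, at 2.77, was 1.67 in 5 kb windows, 0.957 with under 30 CpG sites and 4.84 against the interior, and chromosome 3, at 2.92, was 4.42 over 1 Mb. Chromosome 10, at -0.286, lay between -3.53 (over 1 Mb) and -0.0728 (at least 5 CpG sites) where it did not turn, and became 0.0415 points with 50 calls, 1.52 in 5 kb windows and 0.134 against the interior. Over 5 Mb, chromosome 3 became -1.25 and chromosome 25 -0.377, and chromosome 14 became -2.43 with under 30 CpG sites. The causes were not tested. No paired analysis was possible because both samples belong to 1 group. Promoter results were not run. Depth limits the starts through windows below 20 calls, which were more common in Bone_1 both at the starts and in the rest.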
